A study of Mus musculus with 9 samples.

Results

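The cytosolic ribosomal proteins are the protein part of the ribosome that translates nuclear messages. Their genes were taken as the entries of the deposited expression table named Rpl or Rps plus a number, with an a or x where the name has one, together with Rplp0, Rplp1, Rplp2 and Rpsa. This rule used names alone and found 76 genes of the 54449 in the table, 46 of the large subunit and 30 of the small subunit. The study profiled RNA from 9 pools of cells that its labels call lung eosinophils, from C57BL/6 mice, with 3 pools per group and 3 to 4 mice in a pool. No other genotype or allele is given, and the age and sex of the animals are not given. The group labelled naive had received saline by tail vein. The groups labelled Siglec-F high and Siglec-F int (an intermediate surface level of this lectin, and called int here) came from animals injected by the same route with PyMT cells, a mammary tumour line that seeds the lung, and iEOS and rEOS are their respective names in the sample titles. Nothing says whether high and int pools were sorted from the same animals, and n counts pools of mice throughout.

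A ribosome needs 1 copy of nearly every ribosomal protein, apart from the acidic stalk proteins, so cells make them in matched amounts. Their messages start with a stretch of pyrimidines, the TOP motif, through which the kinase mTOR and its RNA-binding effector Larp1 control their translation as a group. Several members also act away from the ribosome, and loss of 1 copy of some of them causes Diamond-Blackfan anaemia, a failure of red cell production. 

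The labels state that sorted cells were over 98% pure by cytospin, but the defining markers of eosinophils were scarce. Siglecf ran from 3.58 to 31.3 normalized counts over the 9 libraries, Ccr3 from 0 to 24.1 and Epx from 0 to 17.1. The summed level of all 11 listed eosinophil genes was 268 to 742 in naive, 516 to 1156 in high and 194 to 420 in int. No eosinophil marker of 6 tested was called in either comparison with naive. The summed level of 11 pigment cell genes was 80446 to 85320 in the libraries labelled naive, 542 to 1573 in those labelled Siglec-F high and 1046 to 1919 in those labelled int, and all 11 were called lower in both. Of 11 fibroblast and smooth muscle markers, 7 were called higher in high and 5 in int, and of 11 monocyte and macrophage markers 6 and 5. Of 5 general leukocyte genes 2 were called higher in each, and of 7 lymphocyte genes tested 1 in high. Of 6 neutrophil genes tested 1 was called lower in each, and 0 of 11 epithelial and endothelial genes were called. Among all genes tested, 14.7% were called higher in high and 12.0% in int, and 16.6% and 10.3% lower. The shifts in marker genes accompany every comparison with naive below, and their part in the ribosomal protein results was not tested. In bulk RNA, fewer cells of a type and less RNA per cell cannot be told apart. Depth ran from 2205949 to 5529406 reads per library in naive, 4941900 to 7171066 in high and 7517513 to 12495639 in int. Every int library was thus deeper than every other library. The labels give a minimum RNA integrity number of 6.3. The first high library and the second int library stood apart from the rest of their groups. Several results that rest on them are given with and without them.

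Promoter sequences were at hand for 56 of the 76 genes, in 66 windows from RefSeq (GRCm38.p6) that run from 250 bases before to 50 after an annotated start. From 20 bases before to 30 after the start, the longest unbroken run of C and T was 8 bases or more in 50% of the members' windows and in 19.0% of all 32851 windows, with medians of 7.5 and 5 bases. The letters CCGGAAG on either strand, a core recognised by ETS family factors, stood in 36.4% of the members' windows and 8.86% of all. TATAAA on either strand, the TATA box, stood in 9.09% and 13.6%. These 2 motifs cannot overlap, whereas the reverse strand of the ETS core holds CTTCC and can lie within a run of C and T. Stretches from 45 bases before to 15 after the start are printed for 6 genes that fell against naive (Rpl13a, Rpl7a, Rpl28, Rps10, Rpl10a and Rpl19, the last 2 with 2 annotated starts each), for Rpl36a, the only gene that rose, and for Rpsa and Rpl5, which lay far apart in Siglec-F high library 1. Capitals mark the longest run of C and T in each.
Rpl13a, chr7:45128731-45128790, minus strand: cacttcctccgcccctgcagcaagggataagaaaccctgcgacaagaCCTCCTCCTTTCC
Rpl7a, chr2:26910762-26910821, plus strand: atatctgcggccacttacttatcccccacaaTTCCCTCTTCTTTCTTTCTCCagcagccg
Rpl28, chr7:4792920-4792979, plus strand: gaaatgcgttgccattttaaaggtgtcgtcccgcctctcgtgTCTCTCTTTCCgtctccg
Rps10, chr17:27635230-27635289, minus strand: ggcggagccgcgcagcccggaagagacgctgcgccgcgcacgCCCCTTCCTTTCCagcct
Rpl10a first start, chr17:28328426-28328485, plus strand: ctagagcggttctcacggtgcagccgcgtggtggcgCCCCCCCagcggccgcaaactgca
Rpl10a second start, chr17:28328520-28328579, plus strand: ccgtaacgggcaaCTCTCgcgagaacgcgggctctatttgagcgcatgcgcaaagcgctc
Rpl19 first start, chr11:98026665-98026724, plus strand: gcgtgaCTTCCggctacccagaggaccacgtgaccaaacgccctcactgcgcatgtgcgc
Rpl19 second start, chr11:98026879-98026938, plus strand: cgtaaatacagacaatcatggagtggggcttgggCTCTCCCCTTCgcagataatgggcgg
Rpl36a, chrX:134585609-134585668, plus strand: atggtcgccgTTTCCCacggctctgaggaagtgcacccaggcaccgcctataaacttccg
Rpsa, chr9:120127721-120127780, plus strand: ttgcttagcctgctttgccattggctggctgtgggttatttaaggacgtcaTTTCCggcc
Rpl5, chr5:107900483-107900542, plus strand: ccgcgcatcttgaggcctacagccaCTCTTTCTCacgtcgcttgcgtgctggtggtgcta
The run was 21 bases long in Rpl7a, 13 in Rpl13a and Rps10, 11 in Rpl28, 7 and 5 at the starts of Rpl10a, 5 and 11 at those of Rpl19, 9 in Rpl5, 6 in Rpl36a and 5 in Rpsa. It covered the annotated start in Rpl7a, Rpl28 and Rps10. The genes that fell thus had both long and short runs, and promoters were not compared between called and uncalled genes.

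Together the 76 genes took 10.1%, 10.2% and 11.4% of the recovered reads in the libraries labelled naive. They took 6.91%, 9.49% and 9.16% in Siglec-F high and 7.40%, 9.46% and 7.24% in Siglec-F int. All 6 libraries from tumour-bearing mice lay below all 3 naive ones, and high and int overlapped. The 95% Wilson interval of the lowest share was 6.89% to 6.94%, so counting error was small beside the spread between pools. Mitochondrially encoded genes took 11.5% to 21.2% of reads in naive, 13.9% to 31.1% in high and 14.6% to 18.1% in int, with the top value in high library 1. With those reads left out, the members' share was 12.6% to 12.9% in naive, 10.0% to 11.4% in high and 8.60% to 11.1% in int, and the naive libraries still lay above the rest. The ratio of large to small subunit reads was 1.47 ± 0.135 in naive, 1.48 ± 0.0291 in high and 1.59 ± 0.0700 in int (mean ± SD, n = 3 each).

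**Figure D1:**
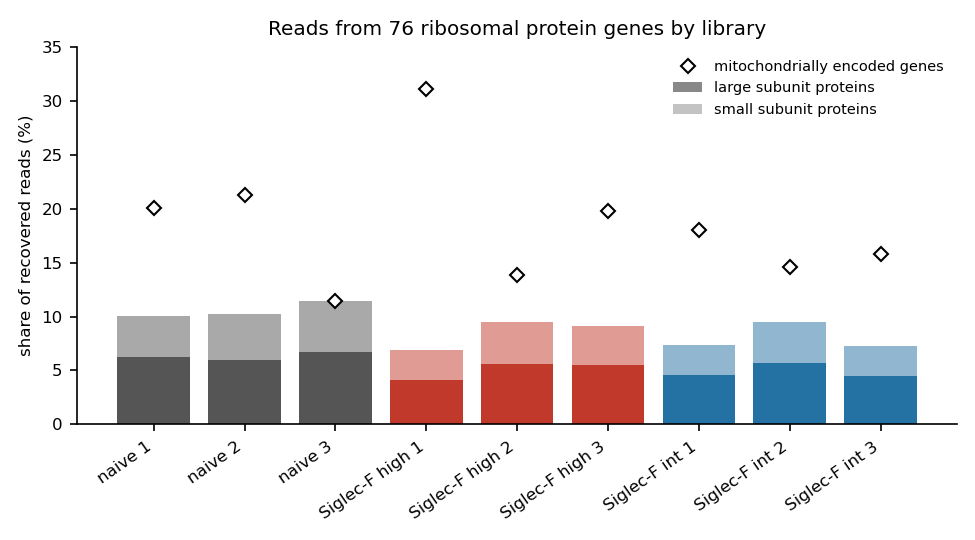
Share of recovered reads (%, vertical axis) from large subunit (solid) and small subunit (pale) ribosomal protein genes in each of 9 libraries, with diamonds for mitochondrially encoded genes. The stacked bars reach 10.1% to 11.4% in naive and stay at or below 9.49% in the other 6 libraries.

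All 76 genes were abundant enough to be tested. By mean normalized count over the 9 libraries, Rpl4 at 47453 and Rps2 at 16653 were among the highest, and the lowest were Rps10 at 615, Rpl13a at 663 and Rpl9 at 898. Divided by coding length, the order at the top was Rpl4, Rpl41 and Rpl23 at 37751, 35956 and 35647 normalized counts per kilobase, and the bottom was Rpl9, Rps10 and Rpl13a at 1560, 1242 and 1089. Whether reads cover whole messages or their ends, and how reads that match several places were counted, is not given in the sources used here, so levels between genes carry that limit. Comparisons between groups below are of 1 gene with itself.

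Against naive, ribosomal protein genes were lower more often than higher in both groups from metastatic lungs. In Siglec-F high, 17 of 76 fell and 1 rose by limma at an adjusted p of 0.05, beside 16.6% lower and 14.7% higher among all 13642 genes tested. The members' median log2 fold change was -0.48, and that of all genes was -0.11. In 36 members every high library lay below every naive library, which held for 26.2% of all genes. In Siglec-F int, 15 of 76 fell and 0 rose, beside 10.3% lower and 12.0% higher among all genes. The median was -0.75, against -0.02 for all genes, 71 of 76 fold changes were below 0, and 37 members had every int library below every naive library, beside 27.6% of all genes. At an unadjusted p under 0.05 by limma, 28 and 33 of 76 members differed from naive, beside 6150 and 5023 of all 13642 genes. DESeq2 and edgeR on recovered reads called 0 members higher in int as well.

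Both comparisons share the 3 naive libraries, so their lists are not independent. The genes called lower in both numbered 10, which is 58.8% of the high list and 66.7% of the int list. They were Rplp1, Rpl6, Rpl7a, Rpl10a, Rpl13a, Rpl19, Rpl28, Rpl32, Rpl36 and Rps16. Those called lower in high alone were Rpl3, Rpl8, Rpl12, Rpl29, Rps2, Rps3 and Rps10, and those called in int alone included Rplp2, Rpl9, Rpl27 and Rps18. No member passed the test of high against int, so a call in 1 comparison alone does not show a difference between these groups. By subunit, 13 of 46 large and 4 of 30 small subunit genes fell in high, and 12 of 46 and 3 of 30 fell in int. The small subunit's shares of 13.3% and 10% lay below the 16.6% and 10.3% of all genes, and the large subunit's of 28.3% and 26.1% lay above them.

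**Figure D2:**
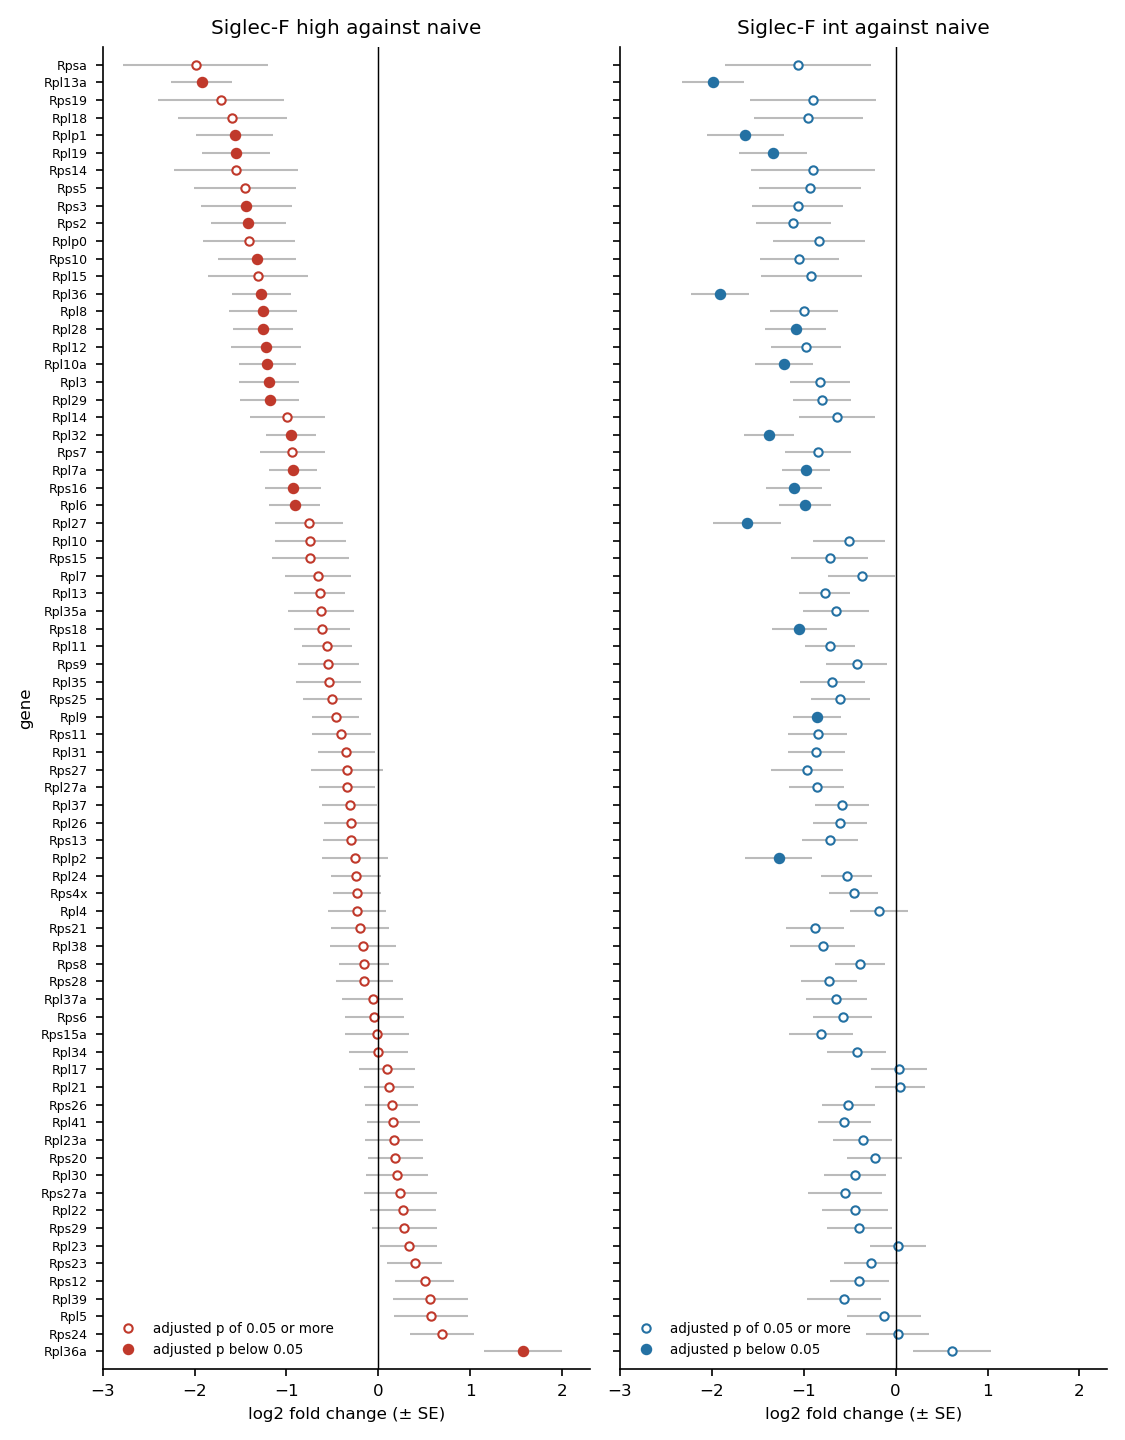
Log2 fold change ± SE of 74 of the genes (vertical axis, in the order of the left panel) in Siglec-F high (left) and Siglec-F int (right) against naive, from 1 limma fit. Filled points passed an adjusted p of 0.05: 17 below and 1 above 0 on the left, and 14 below 0 on the right.

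These counts depended on the scaling and on a joint trend with GC content and length. The members' share called lower was at or below that of all genes under 9 of the 28 alternatives in each comparison. With equal library totals in place of the authors' size factors, the median of all genes moved from -0.11 to 0.02 in high and from -0.02 to 0.23 in int, and the members' medians became -0.34 and -0.48 with 8 and 5 genes called lower. Those counts are 10.5% and 6.58% of members, beside 11.8% and 6.58% of all genes, so with equal totals the excess of lower calls was gone. With mitochondrial genes left out of the totals, lower calls were 14.5% of members in each comparison. That lay above the 12.5% of all genes in high and 7.38% in int. TMM scaling gave 14.5% beside 13.3% in high and 6.58% beside 7.23% in int. Relative to all genes, the members' median lay 0.37 lower on the log2 scale in high with the authors' factors and with equal totals. In int it lay 0.73 lower with the authors' factors and 0.71 lower with equal totals. The direction of both medians was the same under each of the 28 alternatives. The dependence on GC content and length, both of 1 whole transcript per gene, was also taken out of each library. After that, 5 genes were called lower and 1 higher in high and 5 lower in int, and the members' median was -0.23 and -0.20. Lower calls were then 6.58% of members in each comparison, beside 14.01% of all genes in high and 10.0% in int, so members were called lower less often than genes in general. Those called lower were Rpl13a, Rpl19, Rpl32, Rps15a and Rps20 in high and Rpl5, Rpl13a, Rpl32, Rps15a and Rps20 in int, of which Rps15a and Rps20 are named here after their values were seen, and Rpl36a was again the gene called higher. The distance to the median of all genes then shrank to 0.02 and 0.09 on the log2 scale, both lower.

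Members with more G and C in their coding sequence had the lower fold changes. In high against naive the median was -0.03 for the 26 genes of lowest GC (44.9% to 50.8%), -0.61 for the 25 in the middle and -1.26 for the 25 of highest GC (54.7% to 61.6%). The numbers called lower in these classes were 0, 7 and 10. In int against naive the medians were -0.50, -0.86 and -0.90, with 1, 7 and 7 called lower. Lower calls over all genes were 16.6% in high and 10.3% in int. No such classes were formed over all genes, so this order is not shown to be particular to the members. Spearman's rho between coding GC and fold change was -0.61 and -0.56 over the 76 genes, which share their libraries and are not independent replicates. Over the same genes rho with coding length was -0.46 in high and -0.11 in int. The GC and length removed above were those of whole transcripts, not of coding sequences. They were removed together, so their parts in these fold changes were not tested apart.

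**Figure D3:**
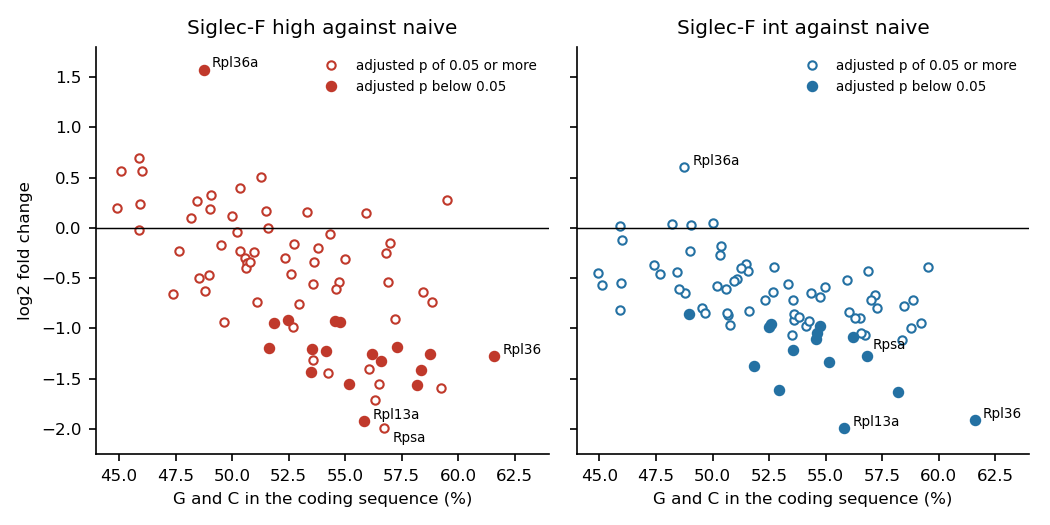
Log2 fold change against naive (vertical axis) by the percentage of G and C in the coding sequence (horizontal axis) for the 76 genes, Siglec-F high on the left and int on the right, with filled points for an adjusted p below 0.05. The class of highest GC, above 54.7%, has a median of -1.26 on the left and -0.90 on the right.

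Rpl13a gave the firmest difference. This large subunit protein is also known to leave the ribosome after interferon-gamma and to silence inflammatory messages as part of the GAIT complex. Its gene lies at chr7:45125558-45128761 on the minus strand. Its levels were 955, 1779 and 1222 normalized counts in naive, 302, 465 and 270 in high, and 281, 405 and 289 in int. Every naive library exceeded every other library, and high and int overlapped. The log2 fold change was -1.92 ± 0.33 in high and -1.99 ± 0.33 in int (limma, adjusted p = 0.0028 and 0.0029). Both calls held under each of the 28 alternatives, with adjusted p up to 0.018 and 0.019, including removal of the GC and length trend. It was also the least abundant member per kilobase.

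Rpl36 and Rpl32, both large subunit proteins, fell in both groups. Rpl36 stood at 3066, 5374 and 3619 in naive, 1912, 1385 and 1598 in high, and 976, 1453 and 791 in int. The groups did not overlap with naive, and its log2 fold change was -1.27 ± 0.32 in high (limma, adjusted p = 0.014) and -1.91 ± 0.32 in int (adjusted p = 0.0028). With the GC and length trend removed these calls were lost, at adjusted p = 0.47 and 0.086 with the replicate block added, and Rpl36 has the highest coding GC of all members. Rpl32 stood at 7377, 8414 and 6811 in naive, 4308, 3618 and 3782 in high, and 2415, 3979 and 2518 in int. Its fold change in int was -1.38 ± 0.27 (adjusted p = 0.0064), and that call held under each of the 28 alternatives. In high it was -0.95 ± 0.27 (adjusted p = 0.025), a call lost under 10 of 28 alternatives (adjusted p from 0.0047 to 1), among them without Naive library 1, 2 or 3 (adjusted p = 0.062, 0.072 and 0.053) or without Siglec-F high library 3 (0.068).

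Rpl19, a large subunit protein on the solvent side that forms a bridge to the small subunit, fell to between 2469 and 5988 in high from 11001, 16323 and 12178 in naive. Its log2 fold change was -1.55 ± 0.37 (limma, adjusted p = 0.012) and held under each of the 28 alternatives. In int it stood at 4668, 6349 and 4564, a change of -1.34 ± 0.37 (adjusted p = 0.027) that was lost under 11 of the 28. Rpl27, for which variants cause Diamond-Blackfan anaemia, fell in int, from 1267, 2222 and 1867 to 485, 826 and 455 (-1.61 ± 0.37, adjusted p = 0.012). That call was lost without int library 1 or 3 (0.054 and 0.057, with 0.0014 to 0.084 over the 28). It was also lost with the GC and length trend removed (-0.99, limma, adjusted p = 0.061). In high, Rpl27 stood at 1596 in library 1, within the naive range, and at 831 and 821 in the others.

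The P stalk of the large subunit, which recruits and activates elongation factors, consists of Rplp0 at its base and pairs of the acidic proteins Rplp1 and Rplp2. Rplp1 fell in both groups, from 3848, 6296 and 5787 in naive to 879, 2574 and 2394 in high and 1500, 2281 and 1368 in int. Its log2 fold change was -1.56 ± 0.42 in high (limma, adjusted p = 0.019) and -1.63 ± 0.42 in int (adjusted p = 0.020), with no overlap with naive. Without Naive library 2 or 3 the adjusted p rose to 0.066 and 0.061 in high and 0.069 and 0.065 in int, and without int library 1 or 3 to 0.074 and 0.082 in int. Over the 28 alternatives it ran from 0.0092 to 0.081 in high and from 0.0012 to 0.082 in int. Both calls were also lost with the GC and length trend removed. Rplp2, the partner of Rplp1, fell in int, where it stood at 748, 1574 and 940 against 1789, 3686 and 2377 in naive (-1.27 ± 0.36, adjusted p = 0.030), a call lost under 11 of 28 alternatives, among them without Naive library 2 or 3 or int library 1 or 3. In high it stood at 2700, 1809 and 1902, inside the naive range (adjusted p = 0.61). Rplp2 was thus 1 of the members in which every high library exceeded every int library, yet the difference between high and int did not pass the test. Rplp0 stood at 10071, 15104 and 11035 in naive and at 1725, 7883 and 6629 in high, all below naive (-1.41 ± 0.50, adjusted p = 0.053). Without high library 2 that value became -1.81 with adjusted p = 0.020, within a range of 0.020 to 0.20 over the alternatives. Rplp0 did not pass in high without high library 1 alone, and its value came as near 0 as -0.68 over the 28. In int Rplp0 stood at 6030, 8067 and 6122 (adjusted p = 0.25).

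Rpl5 and Rpl11 join 5S RNA before it enters the ribosome, and when assembly stalls they bind Mdm2 and so stabilise p53. Rpl5 stood at 9113, 6234 and 6666 in naive, 20613, 7072 and 8474 in high, and 5662, 8623 and 6002 in int. High library 1 was far above every other library and the groups otherwise overlapped (adjusted p = 0.29 and 0.85). Rpl11 stood at 2476, 2746 and 2547 in naive, 1560, 1935 and 1802 in high, and 1427, 2180 and 1256 in int. All libraries from metastatic lungs lay below naive, but neither difference passed the test (limma, adjusted p = 0.13 and 0.081). Rps6, the small subunit protein phosphorylated by S6 kinase downstream of mTOR, stood at 7468, 7865 and 8127 in naive, 11150, 6299 and 6208 in high, and 4580, 7336 and 4290 in int. Its levels in high lay on both sides of naive, those in int lay below naive, and neither comparison passed (adjusted p = 0.93 and 0.22). 

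Rps27a is made as a fusion with ubiquitin and stood at 6158, 5880 and 7481 in naive, 13317, 5547 and 6041 in high, and 3618, 7040 and 3378 in int. It did not pass in high or int (adjusted p = 0.66 and 0.34), and its top value was again in high library 1. Fau, which encodes a ubiquitin-like protein fused to Rps30 and falls outside the naming rule, averaged 8003 in naive, 4770 in high and 6432 in int (adjusted p = 0.16 and 0.59).

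Of the 7 members with known duties away from the ribosome, 2 fell in high (Rpl13a and Rps3) and 1 in int (Rpl13a). Among all genes 16.6% were called lower in high and 10.3% in int. Rps3, which sits at the messenger RNA entry site and also acts in DNA repair and as a partner of NF-kB, stood at 3774, 4288 and 3585 in naive and 559, 2373 and 2197 in high (-1.44 ± 0.50, adjusted p = 0.048). That call was lost under 18 of 28 alternatives, and without high library 1 the value was -0.76 (adjusted p = 0.063, with 0.012 to 0.13 over the 28). Rpsa, the laminin receptor precursor, had the largest negative value in high, with 11979, 24633 and 19337 in naive and 903, 11582 and 8735 in high. Every high library lay below every naive one, but library 1 differed from the other high libraries by more than they did from naive. The log2 difference was -1.99 ± 0.79 (adjusted p = 0.077), and without high library 2 it was -2.67 (0.024, with 0.024 to 0.27 over the 28). Rpsa did not pass in high without high library 1 alone, and its value came as near 0 as -0.80 over the 28. Int levels of 7705, 12719 and 6375 overlapped naive (-1.06 ± 0.79, adjusted p = 0.36), and without high library 1, which shares the fit's spread estimate, this value passed (0.042, with 0.015 to 0.69 over the 28). Rpl22, needed in developing T cells, Rpl38, tied to translation of Hox messages, and Rpl10, which joins the large subunit late, did not pass in either comparison (adjusted p from 0.13 to 0.74).

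Among 15 members mutated in Diamond-Blackfan anaemia, Rps10 alone fell in high, and 2 fell in int, Rpl27 among them, beside 16.6% and 10.3% lower among all genes. Rps10, which is ubiquitylated when ribosomes collide, stood at 823, 1159 and 880 in naive and 183, 560 and 523 in high (-1.32 ± 0.43, limma, adjusted p = 0.039). It was lost under 16 of 28 alternatives, for example without high library 1 (-0.80, adjusted p = 0.054, with 0.021 to 0.18 over the 28). Rps19, the member most often mutated in that disease, stood at 4345, 4812 and 4339 in naive and at 327, 3084 and 2533 in high. All were below naive, and the difference of -1.72 ± 0.69 did not pass (adjusted p = 0.077), although it did without high library 2 (-2.30, 0.025) or without both high library 1 and int library 2 (-0.68, 0.020), within a range of 0.020 to 0.29. Rps24 stood at 3823, 3577 and 3830 in naive and 9053, 4707 and 5190 in high, all above naive (adjusted p = 0.14). For 10 more, which include Rps7, Rps26, Rps28, Rps29, Rpl5 and Rpl11, adjusted p ran from 0.066 to 0.72 in high and from 0.071 to 0.85 in int.

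Rpl36a was the only member that rose. It is 1 of 4 X-linked members, with Rpl10, Rpl39 and Rps4x, and lies at chrX:134585654-134588062 on the plus strand. It stood at 448, 557 and 735 in naive, 3316, 1166 and 1264 in high, and 796, 1248 and 657 in int. All high libraries exceeded all naive ones, with library 1 well above the other 2, while int overlapped naive. The log2 fold change was 1.58 ± 0.42 in high (limma, adjusted p = 0.019), and it was lost without Naive library 1 (1.41, 0.068) or 2 (1.56, 0.055), where 0.068 was the highest adjusted p of the 28 alternatives. The call stayed without high library 1, and the value ran from 1.09 to 1.88 over the 28. Rpl36a did not pass in int (adjusted p = 0.33). Rpl39, a small protein lining the exit tunnel, stood at 3274, 4314 and 5795 in naive, 10520, 4360 and 5768 in high, and 2878, 4458 and 1978 in int. Among the high libraries library 1 alone exceeded the naive range, and the adjusted p was 0.30 in high and 0.34 in int. Rps4x and Rpl10 also did not pass (adjusted p from 0.16 to 0.52).

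Rpl36a has a close autosomal relative, Rpl36al, and the coding sequences agree at 87.7% of their 318 bases. Their first 90 coding bases are printed because reads could be divided between these genes only where they differ. Capitals mark the 14 differing bases.
Rpl36a: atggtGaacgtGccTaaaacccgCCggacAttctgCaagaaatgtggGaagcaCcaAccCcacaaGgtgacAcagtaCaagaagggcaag
Rpl36al: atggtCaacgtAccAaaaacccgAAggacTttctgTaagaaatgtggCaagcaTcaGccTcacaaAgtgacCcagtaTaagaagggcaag
Rpl36al stood at 303, 247 and 292 in naive, 202, 206 and 247 in high, and 156, 252 and 142 in int. It did not rise with Rpl36a, and neither difference from naive passed (adjusted p = 0.39 and 0.16). Of the 7 tested relatives outside the naming rule, Rpl7l1 alone fell in high, beside 16.6% lower among all genes. It went from 316 ± 23.0 to 93.9 ± 52.8 (mean ± SD, n = 3). Its log2 fold change of -1.94 ± 0.47 (limma, adjusted p = 0.012) held under each of 28 alternatives. In int the smallest adjusted p among the 7 was 0.062, for Rps27l. Rpl22l1, which can stand in for Rpl22, averaged 1410 in naive, 1786 in high and 953 in int (adjusted p = 0.80 and 0.33). Rps27l, a p53-inducible relative of Rps27, averaged 1059, 869 and 524 (0.45 and 0.062).

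The proteins near the decoding site and the exit tunnel numbered 11. Of these Rps2, Rps3 and Rpl3 fell in high, beside 16.6% lower among all genes. None fell in int, beside 10.3% of all genes, and the smallest adjusted p there was 0.072 (limma), for Rps2. Rps2, at the messenger RNA entry, stood at 23302, 29442 and 26986 in naive, 5051, 15763 and 12239 in high, and 10846, 15226 and 11027 in int. Both groups lay below naive, with -1.42 ± 0.41 in high (adjusted p = 0.025) and adjusted p = 0.072 in int. The call in high was lost without any 1 naive library (adjusted p = 0.054, 0.076 and 0.068, with 0.011 to 0.40 over the 28). Rpl3, which reaches into the peptidyl transferase centre, stood at 13911, 12535 and 11418 in naive and 3494, 7168 and 6680 in high (-1.19 ± 0.33, adjusted p = 0.021). It was lost without Naive library 1 or 2 (0.068 and 0.056, with 0.010 to 0.12 over the 28). Rpl4, which lines the tunnel, stood at 62716, 47787 and 45754 in naive and overlapped in both groups, at 40667 to 46945 in high and 37861 to 57333 in int (adjusted p = 0.59 and 0.71). The other 6 of these proteins (Rps15 and Rps23 of the decoding site, and Rpl17, Rpl22, Rpl23a and Rpl35 at the tunnel) had adjusted p from 0.19 to 0.83 in high and from 0.18 to 0.95 in int.

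The remaining called genes had smaller or less stable values. Rpl10a, Rpl28, Rpl7a, Rpl6 and Rps16, the last of which reaches the peptidyl site of the small subunit, fell in both comparisons. Their log2 fold changes were -1.21, -1.26, -0.93, -0.91 and -0.93 in high and -1.21, -1.09, -0.98, -0.99 and -1.11 in int, with limma's adjusted p from 0.017 to 0.040. In high they were lost under 4 (Rpl10a), 4 (Rpl28), 9 (Rpl7a), 17 (Rpl6) and 18 (Rps16) of 28 alternatives, and in int under 9, 15, 14, 15 and 13. Each was lost without Naive library 2 in both comparisons, and without int library 1 or 3 in int. Rpl8 and Rpl12, a protein at the foot of the stalk, and Rpl29 fell in high by 1.26, 1.22 and 1.18 on the log2 scale (adjusted p = 0.027, 0.033 and 0.020). These calls were lost under 12, 15 and 8 of 28 alternatives, all without Naive library 1 or 3, Rpl8 and Rpl12 also without Naive library 2, and Rpl12 also without high library 1 or int library 3. Their values came as near 0 as -0.20, -0.74 and -0.26. Rpl9 and Rps18 fell in int by 0.86 and 1.05 (adjusted p = 0.038 and 0.031), calls lost under 16 and 14 of 28, including without any 1 naive library, high library 3 or int library 1 or 3. Among all called members, 0 changed sign under any of 28 alternatives, while 29 of 58 uncalled members did in high and 21 of 61 in int.

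**Figure D4:**
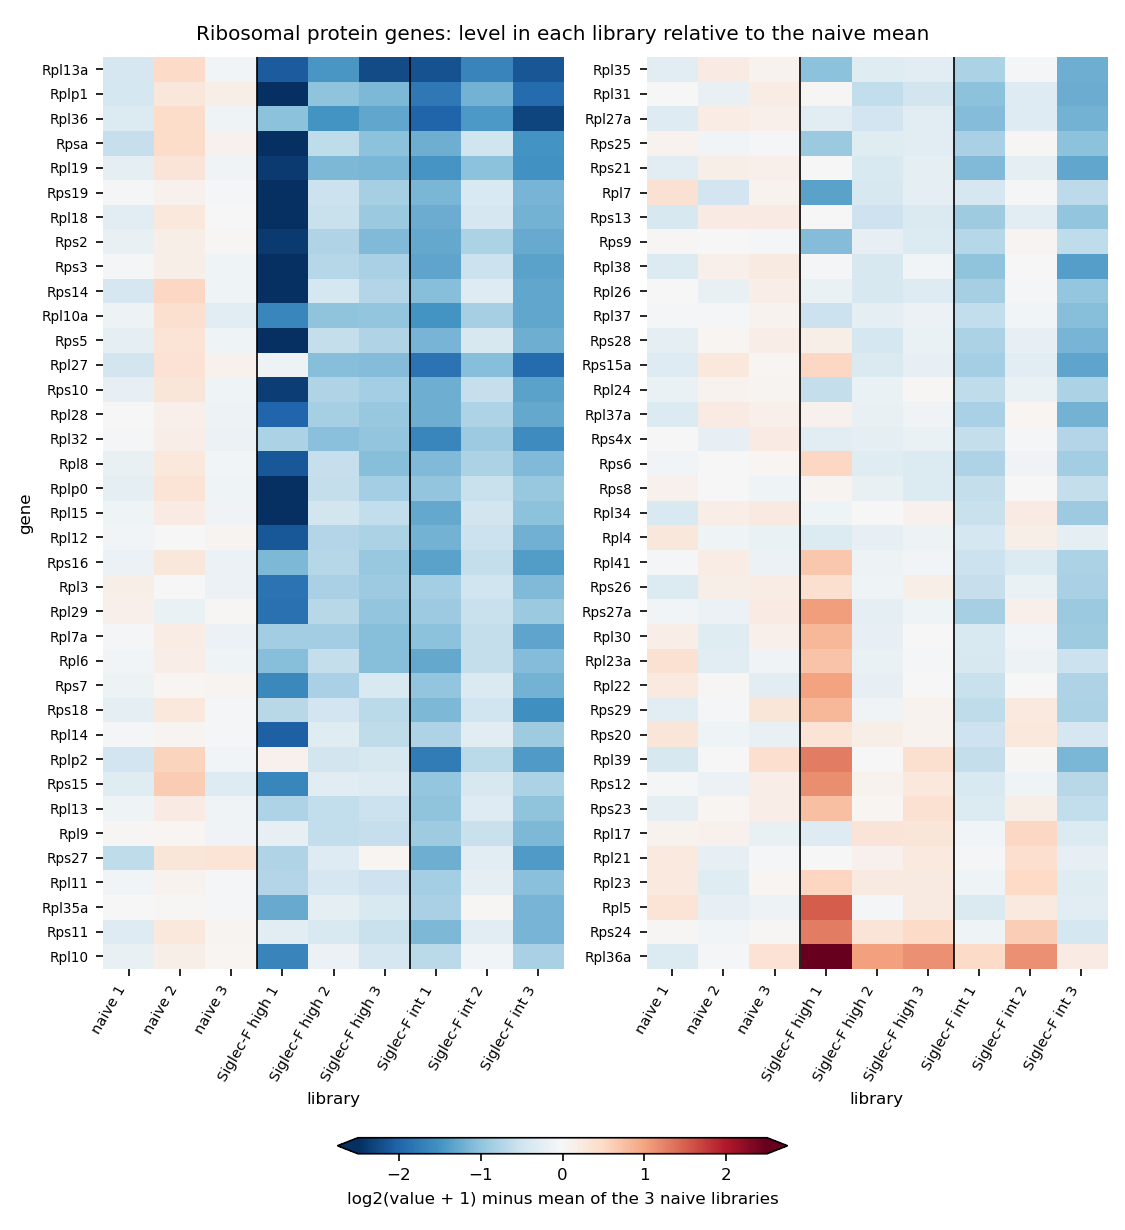
Level of 74 of the genes (rows) in each of 9 libraries (columns), as log2(value + 1) minus the mean of the 3 naive libraries, in blue where lower and red where higher, with genes ordered by their mean over the other 6 libraries. Rpl13a heads the order and Rpl36a ends it, and high library 1 holds both the deepest blues (Rpsa, Rps19) and the deepest reds (Rpl36a, Rpl5).

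The pools of a group did not vary in the same way. In Siglec-F high library 1 the members spread widely around the other 2 high libraries, with an SD of 1.11 on the log2 scale, 22 genes more than 1 below and 5 more than 1 above. The lowest was Rpsa at -3.48, followed by Rps19, Rps14 and Rpl18, and those above 1 were Rpl36a at 1.45, Rpl5, Rps27a, Rpl22 and Rpl39. Other genes of similar level had an SD of 1.403 in this library, with 29.6% more than 1 below, a wider spread than that of the members. Its distance from the other pools had a Spearman's rho of -0.49 with coding GC and -0.46 with coding length over the 76 genes, and this library also had the largest mitochondrial share. Siglec-F int library 2 differed in another manner, since all 76 members lay above the mean of the other 2 int libraries, by 0.31 to 1.18 with a median of 0.71. Other genes of similar level had a median of 0.20 there. In naive libraries the SD of these distances was 0.23 to 0.34, and no gene lay more than 1 from the others.

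**Figure D5:**
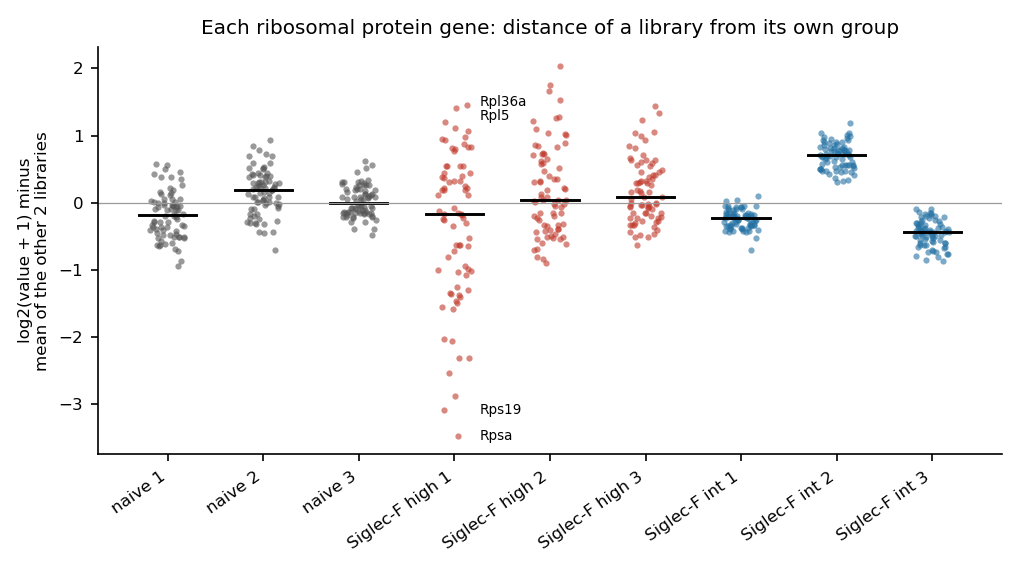
Distance of each library from the mean of the other 2 libraries of its group, in log2(value + 1), for each of the 76 genes (points), with black lines at the medians. Siglec-F high 1 spreads from -3.48 to 1.45, and all points of Siglec-F int 2 lie above 0 around a median of 0.71.

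Without both of these libraries, 61 of 76 members were called lower in int and 24 in high, beside 18.8% and 17.0% of all genes. The 2 libraries were singled out from these same data. All members lay higher in int library 2 than in the rest of its group, so leaving it out had to lower them in int. These counts are therefore no separate support. The members' medians were then -0.98 and -0.37. Removing int library 2 alone gave 26 members lower in int (34.2%), beside 7.48% of all genes. Removing high library 1 alone gave 36 (47.4%), beside 20.2% of all genes, since all libraries share 1 estimate of the spread. With all 9 libraries 10.3% of all genes were called lower in int. Removing Naive library 2 left 4 called lower in each comparison, and removing int library 1 or 3 left 3 in int. With Naive library 2 removed these were 5.26% of members, beside 9.79% of all genes in high and 6.76% in int. With int library 1 or 3 removed they were 3.95%, beside 4.99% and 4.76%.

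High and int were not told apart by the test. limma called 0 of 76 members and 0 of all genes (0%) in high against int, with 9 members and 591 genes at an unadjusted p under 0.05. edgeR called 0 members and 0 genes, and DESeq2 called 0 members and 6 genes. The members' median difference was 0.23, higher in high, with 52 of 76 above 0, and the median of all genes was -0.08. In 4 members, Rplp2, Rpl41, Rps12 and Rps26, every high library lay above every int library, beside 5.52% of all genes. Without high library 1 and int library 2 the median was 0.53, 0 of 76 values were below 0, and 0 were called. Every member lay higher in int library 2 than in the rest of its group, so leaving that library out had to raise each difference.

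Genes that work beside the ribosomal proteins moved in both directions. The counts in each list below stand beside 16.6% lower and 14.7% higher among all genes in high, and 10.3% and 12.0% in int. Of 20 elongation factor and other TOP messages, 4 fell and 2 rose in high, and 3 fell and 1 rose in int, which is near those shares in high. Eef1d, an exchange factor for the elongation factor that delivers tRNA, fell from 2043 ± 592 to 808 ± 270 in high and 767 ± 85.3 in int (mean ± SD, n = 3). Its log2 fold change was -1.35 ± 0.32 and -1.38 ± 0.32 (limma, adjusted p = 0.011 and 0.012). Its partner subunits Eef1g and Eef1b2 fell as well, Eef1g in high by 0.96 and in int by 0.90 (0.018 and 0.030) and Eef1b2 in int by 1.39 (0.012), and the ribosomal scaffold Rack1 fell in high by 1.41 (0.029). Nap1l1, a histone chaperone with a TOP message, rose by 1.06 in high and 0.79 in int (0.013 and 0.0497). Tpt1, another TOP message, rose by 1.05 in high (0.041). Of these calls, Eef1d in high alone held under each of 28 alternatives. Eef1d and Eef1b2 in int were lost without int library 1 or 3, Eef1g under 7 in high (Naive library 2 and high library 3 among them) and 16 in int, and Rack1 under 9 (Naive library 2 or 3 and high library 1 among them). Nap1l1 was lost under 2 in high, both with the GC and length trend removed, and 15 in int. Tpt1 was lost under 11, and both Tpt1 in high and Nap1l1 in int were lost without any 1 naive library. The factors Eef1a1 and Eef2 and the poly(A) binding Pabpc1 were not called (adjusted p from 0.075 to 0.69).

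Of 27 initiation factors, 11 fell and 6 rose in high, and 5 fell and 3 rose in int. Those that fell with the smallest adjusted p were Eif3g in both (-1.56 and -1.62, limma, adjusted p = 0.0057 and 0.0058), Eif2b1 and Eif2b5 of the eIF2 exchange factor in high (-1.82 and -2.30, 0.0093 and 0.016), and Eif3i and Eif4h in int (-0.89 and -0.81, 0.028 and 0.032). Eif5b, which joins the subunits, rose from 183 ± 18.3 to 878 ± 661 in high and 677 ± 125 in int (0.0083 and 0.014). Eif1a and Eif3j1 rose in both, by 1.53 and 2.01 in high and 1.28 and 2.14 in int on the log2 scale (adjusted p from 0.012 to 0.030). Eif2b1 in high held under each of 28 alternatives, and Eif2b5 was lost without Naive library 2. Eif3g, Eif5b, Eif1a and Eif3j1 were lost in both comparisons with the GC and length trend removed, and the last 3 in int also without int library 1 or 3. Eif3i and Eif4h in int were lost under 15 and 16, including without any 1 naive library or int library 1 or 3.

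Of 34 ribosome biogenesis genes, 10 fell and 3 rose in high, and 11 fell and 2 rose in int. Bop1, Nhp2 and Nop2, which act in large subunit processing, pseudouridylation and rRNA methylation, fell in both. Nhp2 stood at 633, 1128 and 873 in naive, 150, 218 and 186 in high, and 176, 222 and 162 in int. Its log2 fold change was -2.22 ± 0.31 and -2.20 ± 0.31 (limma, adjusted p = 0.0011 and 0.0014), those of Bop1 were -2.06 and -1.66 (0.0011 and 0.0036) and those of Nop2 -1.93 and -2.11 (0.0021 and 0.0017). Bop1 and Nhp2 kept their calls under each of 28 alternatives, as did Nop2 in int, while in high Nop2 lost it with the GC and length trend removed. The nucleolar GTPase gene Gnl3 and Sbds, a subunit joining factor, rose in high by 1.33 and 0.97 (0.029 and 0.043), and the helicase Ddx21 rose in both by 1.03 and 1.13 (0.037 and 0.033). Ncl rose in int by 0.85 (0.048), a direction that turned with the GC and length trend removed, and Npm1 was not called (0.41 and 0.63). Gnl3 was lost under 9 and Sbds under 13 of 28 alternatives, Ddx21 under 12 in high and 9 in int, and Ncl under 13. Naive library 1 left out was among them for all 4, as was high library 1 for the calls in high and int libraries 1, 2 and 3 for those in int.

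Of 15 genes of RNA polymerase I and its factors, which transcribe ribosomal RNA, 5 fell in high and 2 in int. Polr1c, a subunit shared with RNA polymerase III, fell from 1399 ± 614 to 267 ± 94.8 in high and 337 ± 21.2 in int (-2.37 and -1.96, adjusted p = 0.0019 and 0.0055) under each of 28 alternatives. Taf1c and Rrn3 fell in high (-2.17 and -1.09, 0.022 and 0.025) and Polr1d in int (-0.91, 0.037). Taf1c was lost under 6 of 27 alternatives and Rrn3 under 8 of 28, both without Naive library 3 or high library 3. Polr1d was lost under 16 of 28, including without any 1 naive library or int library 1 or 3. Of 23 regulators in the mTOR, Myc and p53 pathways, 4 fell and 1 rose in high, and 2 fell and 2 rose in int, with lower calls near the share of all genes. Eif4ebp1, the translation repressor that mTOR inactivates, fell from 1042 ± 125 to 335 ± 107 in high and 311 ± 27.3 in int (-1.68 and -1.74, limma, adjusted p = 0.0033 and 0.0034), and Akt1 fell in both (-1.85 and -1.54, 0.0046 and 0.013). Mdm2, the ligase that binds Rpl5 and Rpl11, rose from 258 ± 52.9 to 901 ± 189 and 692 ± 95.4 (1.799 and 1.43, 0.0018 and 0.0062), as did Mdm4 in int (1.45, 0.029), while Tsc2 fell in high (-1.08, 0.026). Eif4ebp1 and Mdm2 held under each of 28 alternatives in both comparisons. Akt1 was lost under 1 in each (in int without int library 1), Mdm4 under 6 (without Naive library 2 or any 1 int library among them) and Tsc2 under 7 (without Naive library 2 or 3 among them). Mtor, Larp1, Rps6kb1 and Myc were not called (adjusted p from 0.17 to 0.88).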

How the data were processed

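RNA-seq values of 9 mouse libraries (3 groups of 3, each a pool of 3 to 4 mice) were read from 1 table. Per the submitters' processing notes, TopHat2 2.1.0, HTSeq, DESeq2 1.10.0 and the build GRCm38 were used; strand, molecular identifiers and the treatment of reads matching several places are not given in the sources used here. The deposited values are a normalized count signal, gene counts divided by a factor per library, and all values up to 2000 reads were whole multiples of 1 read (100% within 0.05 reads), so reads were recovered. Nothing says that pools of a group are independent cultures or animals beyond the pooling, so p-values measure the spread between these samples. 

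Log2(value + 1) was fitted for all 9 libraries with limma 3.58.1 (variance trend, R 4.3.3) over 13642 genes with a mean of at least 5, two-sided, with Benjamini-Hochberg adjustment over all of them and a threshold of 0.05. A log2 fold change is on that scale and understates the change of low genes. On recovered reads, edgeR 4.0.16 called 3550 genes in high and 2875 in int against naive, and DESeq2 1.42.0 was also run. Shares of reads have 95% Wilson intervals, which cover counting error only. Coding lengths came from GENCODE (GRCm38) and promoters from RefSeq (GRCm38.p6). The fitting step was tested on simulated data. Genes were named as the up to 10 called lower or higher members of smallest adjusted p, the members of the role lists, the 3 highest and 3 lowest, up to 3 genes per direction of each pathway list, and a fixed set of regulators and relatives. Results for a few genes are not reported here, although counts and medians include them. The members and lists were chosen with earlier results of these data known. Both comparisons with naive share the naive libraries.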

Additional observations from a re-analysis of the deposited data

How the results depend on the processing

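Library number, scaling and the joint trend with GC and length limited these results, and with 3 pools a group a single library could decide a call. The number of members called lower in high against naive (17) became 6 with no filter on low values, 8 with equal totals, 11 with equal totals without mitochondrial genes, 11 with TMM scaling, 9 with quantile normalization, 6 with no variance trend, 10 with only the 2 groups compared, 5 with the GC and length trend removed and 6 with edgeR. For int (15) it became 5, 5, 11, 5, 7, 4, 25, 5 and 7 in the same order. The members' share called lower was at or below that of all genes under 9 of 28 alternatives in each comparison, for example 7.89% beside 13.8% in high and 5.26% beside 8.70% in int with no variance trend, 11.8% beside 15.4% in high with quantile normalization and 7.89% beside 10.1% in high with edgeR. Leaving out replicates gave 4 to 25 lower in high and 3 to 61 lower in int, and 0 to 1 members higher in high. The 61 came with both high replicate 1 and int replicate 2 left out, 2 libraries singled out from these same data. Equal totals without mitochondrial genes gave 2 higher in high (Rps24 and Rpl36a). The median in int (-0.75) moved to -0.39 with quantile normalization and -0.20 with the GC and length trend removed. DESeq2 gave 16 lower in each comparison and 1 higher in high. The 16 were 21.1% of members, beside 16.7% of all genes called lower in high and 13.3% in int. Ncl in int against naive turned to -0.40 with that trend removed, with or without the block, and the cause was not tested. 

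The labels give no pairing by replicate number. Between high and int, same-numbered deviations from the group mean correlated at 0.12, 0.14 and 0.07. Differently numbered ones ran from -0.16 to -0.01. Same-numbered correlations with naive ran from -0.03 to 0.06. Whether same-numbered high and int pools share animals was not tested. With the replicate block, 23 members were lower and 1 higher in high and 17 lower in int. Lower calls were 30.3% of members in high and 22.4% in int, beside 17.2% and 10.4% of all genes. With the replicate block and the GC and length trend removed together, chosen after seeing the data, 5 members were lower in high and 4 in int, with a median of -0.20 in int. These were 6.58% and 5.26% of members, below the 13.4% and 9.08% of all genes. In high against int, 0 members were called by limma under any setting, by edgeR or by DESeq2 (9 at an unadjusted p under 0.05), and the median ran from 0.06 to 0.53.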

Other observations

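Most pseudogenes named after the members were at very low levels in this table. Of 295 annotated pseudogenes named after 59 of the members, 184 had a value above 0 in at least 1 library. Over all pseudogenes with such names, 8 were abundant enough to be tested. The summed level of a member's copies had a median of 0.0210% of the member's own over these 59, and the highest was 19.7%, for Rpl10. With each member summed with its copies, 17 members were lower and 1 higher in high against naive and 15 lower in int, as without them. How reads that match both a gene and its copies were counted is not given in the sources used here.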
